A study of Mus musculus with 6 samples.

Results

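Genes that set off or carry out pyroptosis, an inflammatory form of cell death, were followed through RNA sequencing of mouse vascular smooth muscle cells. They were 10 genes, chosen by name from the 54532 of the deposited table: the inflammatory caspases Casp1, Casp4 and Casp12, the gasdermins Gsdmd and Gsdme, the inflammasome parts Nlrp3, Nek7, Pycard and Naip2, and the cytokine Il18. All 10 were found, each as 1 protein-coding gene on the GRCm38 assembly. Their mRNA levels were compared between 3 libraries labelled Ad-PDK4 and 3 labelled Ad-Con, and the question was how these genes change when pyruvate dehydrogenase kinase 4 (PDK4), which restrains the entry of pyruvate into mitochondrial oxidation, is overexpressed. Both groups were wild-type cells. Ad-PDK4 cells had received an adenoviral vector with a PDK4 overexpression plasmid, and Ad-Con cells the same kind of vector with a control plasmid. According to the study the cells were isolated from the abdominal aorta of wild-type mice by collagenase digestion, cultured, and in both groups treated with angiotensin II, the vasoconstrictor hormone that is used to induce aneurysms in mice. Cells without this hormone and cells without a virus were not analysed here, and the promoter that drives PDK4 in the adenovirus is not stated outright. The study's methods name pEnCMV, a vector with an HA tag, for the PDK4 construct, without tying it to the adenovirus. The study calls the replicates biological, while the labels do not say whether they were separate cultures or animals. Each limma p-value sets the difference between groups against the gene's spread between these libraries, moderated by that of the other genes in the fit.

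In the canonical pathway a sensor such as NLRP3 assembles with the adaptor ASC (encoded by Pycard) and the kinase NEK7 into an inflammasome, which activates caspase-1. NAIP proteins detect bacterial components and signal through NLRC4 to the same caspase, whereas caspase-11 (encoded by Casp4) is activated directly by lipopolysaccharide in the cytosol. Active caspase-1 matures IL-1β and IL-18, and both caspases cleave gasdermin D, whose freed end forms pores in the plasma membrane. Activation itself is a matter of protein assembly and cleavage, and mRNA levels do not measure it.

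Pdk4 itself was lower in the libraries labelled Ad-PDK4. Its levels were 9.50, 10.4 and 10.1 FPKM in Ad-Con replicates 1 to 3 and 7.67, 7.40 and 7.38 FPKM in Ad-PDK4 replicates 1 to 3. FPKM divides the fragments of a gene by gene length and by a scaled size of the library. The groups did not overlap, and the fall was 0.42 on the log2 scale (log2 fold change -0.42, adjusted p = 0.0011 by limma with the Benjamini-Hochberg method). The measured gene thus went against the overexpression named in the label, and every direction below is between libraries by their labels. The libraries held between 17588942 and 21861872 reads on genes. A count of 0 allows up to 3 reads. Limits and intervals of this kind take in counting error alone and leave out the spread between libraries. They also take no account of PCR copies of a molecule, which are counted as separate reads.

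The promoters of the 3 caspases and of Naip2 are shown first because these are the risen genes with a RefSeq promoter window. Each window runs from 250 bases before to 50 bases after an annotated start on GRCm38.p6, 5′ to 3′ on the gene's strand. They lie at chr9:5298267-5298566 (plus strand) for Casp1, chr9:5308599-5308898 (plus) for Casp4 (the first of 2 windows), chr9:5345226-5345525 (plus) for Casp12 and chr13:100202073-100202372 (minus) for Naip2. Capitals mark matches, on either strand, to any of 3 patterns: GGGANTTCC (an NF-kappaB site), TTCNNNGAA (GAS, the site of STAT dimers) and GAAANNGAA (the core of the interferon-stimulated response element, ISRE).
Casp1: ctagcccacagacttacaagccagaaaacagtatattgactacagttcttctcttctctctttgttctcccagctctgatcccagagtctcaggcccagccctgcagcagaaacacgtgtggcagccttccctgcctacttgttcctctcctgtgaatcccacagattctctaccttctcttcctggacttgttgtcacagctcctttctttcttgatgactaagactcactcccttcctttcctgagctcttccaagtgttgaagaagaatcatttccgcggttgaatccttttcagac
Casp4: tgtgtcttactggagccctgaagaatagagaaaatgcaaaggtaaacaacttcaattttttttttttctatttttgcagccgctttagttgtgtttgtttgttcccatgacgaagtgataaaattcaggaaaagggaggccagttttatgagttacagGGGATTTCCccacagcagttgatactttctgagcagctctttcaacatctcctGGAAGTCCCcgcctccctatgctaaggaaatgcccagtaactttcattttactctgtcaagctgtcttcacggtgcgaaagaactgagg
Casp12: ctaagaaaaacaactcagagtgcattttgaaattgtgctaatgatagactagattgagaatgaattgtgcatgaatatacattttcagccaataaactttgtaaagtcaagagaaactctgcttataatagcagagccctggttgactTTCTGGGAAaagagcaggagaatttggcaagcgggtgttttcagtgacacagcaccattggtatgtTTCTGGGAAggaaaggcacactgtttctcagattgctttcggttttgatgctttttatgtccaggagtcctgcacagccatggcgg
Naip2: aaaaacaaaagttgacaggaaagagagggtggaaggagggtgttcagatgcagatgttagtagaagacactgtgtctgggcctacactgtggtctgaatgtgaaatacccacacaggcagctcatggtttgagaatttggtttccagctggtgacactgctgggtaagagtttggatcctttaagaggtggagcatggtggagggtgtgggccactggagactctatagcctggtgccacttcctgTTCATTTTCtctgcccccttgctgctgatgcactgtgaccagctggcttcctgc

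The neighbouring caspase genes did not share a pattern in these windows. The Casp4 window held 2 NF-kappaB matches, which began 92 and 39 bases before the start, and none of the other patterns. By contrast, 2 GAS matches with the same 9 letters began 102 and 36 bases before the start of Casp12. Naip2 had 1 match to the ISRE core, on the opposite strand to the gene and beginning 4 bases before the start, so that it runs across it. The Casp1 window held no match to any of the 3, which says only that these letters are not in this window. Of 32851 RefSeq promoter windows of 300 bases, 1.68% held the NF-kappaB pattern, 8.30% the GAS pattern and 8.56% the ISRE core. Overlaps between the patterns were not removed in these shares. In all, 9 of the 10 genes had a window, and those of Gsdme, Il18, Nek7, Nlrp3 and Pycard held none of the 3 patterns. A match is a description of letters, and factor binding was not measured.

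Of the 10 genes, 8 passed the filter of a mean of at least 0.5 FPKM, while Nlrp3 and Pycard did not. Among these 8, Casp1, Casp4, Casp12, Gsdmd and Naip2 were higher in the libraries labelled Ad-PDK4 at an adjusted p below 0.05, 5 genes in all, where 21.8% of the 13423 genes tested were called higher. None was called lower, against 20.8% of all genes tested. Without adjustment the count of lower genes at p below 0.05 was also 0, and limma-voom on recovered reads called 1, Il18. A rise of at least 2-fold was called for 4 of the 8, against 3.95% of the genes tested. In 5 of the 8 every Ad-PDK4 library lay above every Ad-Con library (27.8% of all genes tested), and in 0 every one lay below (26.5%). The median log2 fold change of the 8 was 1.28, beside -0.0031 over all genes tested. In bulk RNA, fewer cells expressing a gene and less RNA of it per cell cannot be told apart.

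**Figure D1:**
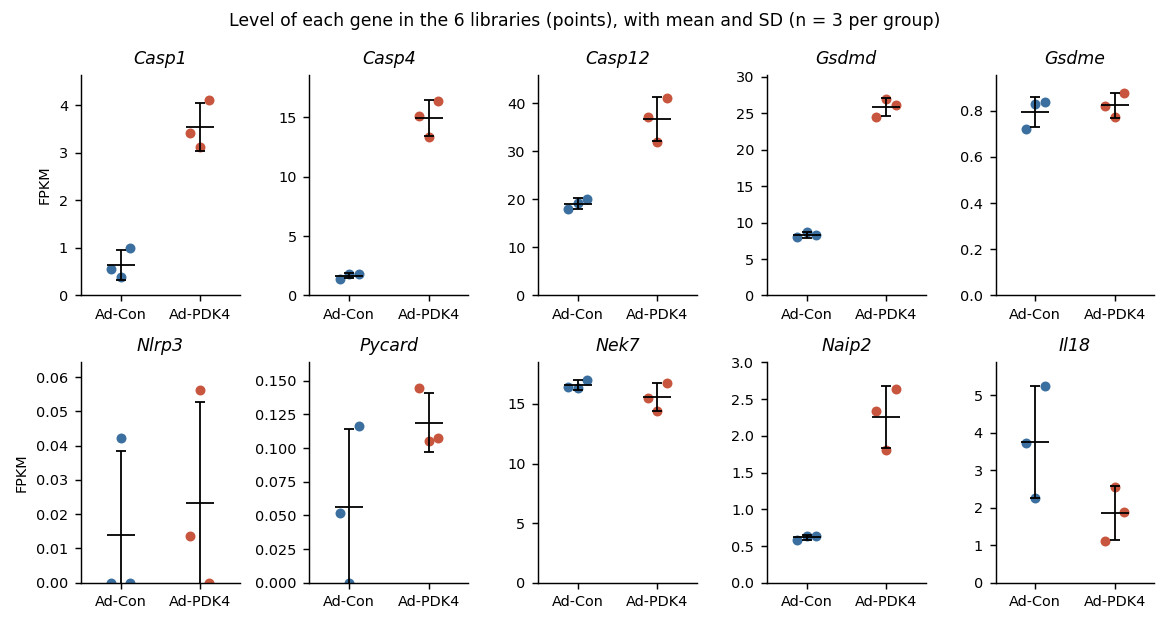
Level of each of the 10 genes in FPKM (vertical axes, each from 0) in the 3 Ad-Con (blue) and 3 Ad-PDK4 (red) libraries. Points are libraries, and the bar and whiskers are the mean and SD (n = 3), drawn down to 0 where they would pass it (Nlrp3, Pycard). Casp1, Casp4, Casp12, Gsdmd and Naip2 separate the groups, whereas Nek7, Gsdme, Il18, Pycard and Nlrp3 overlap.

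Casp4 had the largest rise of the 8 genes tested. It encodes caspase-11, the cytosolic lipopolysaccharide receptor of the non-canonical pathway, and lies at chromosome 9, 5308828 to 5336783. Its levels were 1.40, 1.77 and 1.78 FPKM in Ad-Con replicates 1 to 3 and 15.1, 13.3 and 16.3 FPKM in Ad-PDK4 replicates 1 to 3. The lowest Ad-PDK4 library was far above the highest Ad-Con library. The reads behind these levels were 106, 115 and 120, and then 1021, 863 and 1339. The group means were 1.65 ± 0.214 and 14.9 ± 1.53 FPKM (SD, n = 3), a 9.04-fold ratio of means. On the log2(FPKM + 0.1) scale, which holds for every log2 fold change here, the change was 3.10 with a standard error of 0.12 and a 95% interval from 2.83 to 3.37 (adjusted p = 8.4e-07, limma). This placed Casp4 at position 116 among the rises of all genes tested.

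Casp1, which encodes the protease that matures IL-1β and IL-18 inside inflammasomes, rose from a lower level. It lies just before Casp4 on the same strand (chromosome 9, 5298517 to 5307265). Ad-Con replicates 1 to 3 had 0.558, 0.380 and 0.995 FPKM, and Ad-PDK4 replicates 1 to 3 had 3.41, 3.13 and 4.11 FPKM. The groups were clearly apart, although Ad-Con replicate 3 was more than double replicate 2. These levels rested on only 17, 10 and 27 reads in Ad-Con and on 93, 82 and 136 reads in Ad-PDK4. The means were 0.644 ± 0.316 and 3.55 ± 0.506 FPKM (SD, n = 3), and the log2 fold change was 2.37 (95% interval 1.70 to 3.04, adjusted p = 5.0e-04, limma). Its interval was wider than that of Casp4. With a pseudocount of 1 in place of 0.1 the change was 1.48, and it stayed past the threshold.

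Casp12, which encodes a caspase linked to the endoplasmic reticulum whose role in inflammation is less settled, had the highest FPKM of the 10 genes in both groups. It lies at chromosome 9, 5345430 to 5373032. Its levels were 18.0, 19.2 and 20.2 FPKM in Ad-Con replicates 1 to 3 and 37.2, 31.9 and 41.1 FPKM in Ad-PDK4 replicates 1 to 3. Every Ad-PDK4 library was above every Ad-Con library, with 1292 to 1406 reads in Ad-Con and 2142 to 3490 in Ad-PDK4. The ratio of the means, 19.1 ± 1.10 and 36.8 ± 4.66 FPKM (SD, n = 3), was 1.92, just under the 2-fold limit. The log2 fold change was 0.93 (95% interval 0.72 to 1.15, adjusted p = 1.7e-04, limma). The gene therefore passed the test on p but not the fold limit, which it reached when Ad-PDK4 replicate 2 was left out (1.03).

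The 3 caspases lie head to tail on the plus strand of chromosome 9. Only 1562 bases separate Casp1 from Casp4, and 8646 bases separate Casp4 from Casp12. Within 250 kb of them the table listed 1 other gene, the small nucleolar RNA Gm24896, which had 0 reads in every library, so no other tested gene bears on whether the rise extended past the caspases. Of 100-base stretches of their longest transcripts, none was found in the transcripts of another gene. These transcripts, 1901 bases for Casp4 and 2649 for Casp12, are shorter than the counted lengths of 3710 and 3840 bases. Near matches and reads that run from a gene into the next were not tested, so mixing of reads was not excluded.

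Casp4 and Casp12 did not rise in proportion. In Ad-Con replicates 1 to 3 the ratio of Casp4 to Casp12 levels was 0.0780, 0.0921 and 0.0884. In Ad-PDK4 replicates 1 to 3 it was 0.406, 0.417 and 0.397. The ratio was thus 0.0862 ± 0.0073 against 0.407 ± 0.00997 (SD, n = 3), with no overlap between groups (two-sided exact permutation p = 0.1, the smallest that 3 against 3 libraries can give). Casp1 relative to Casp4 was 0.390 ± 0.171 and 0.238 ± 0.0131, and these groups overlapped (exact permutation p = 0.4). Across the 4 ratios compared the adjusted p-values were 0.133 for 3 ratios and 0.4 for the ratio of Casp1 to Casp4. With 3 libraries a group an adjusted or unadjusted p below 0.05 cannot be reached.

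**Figure D2:**
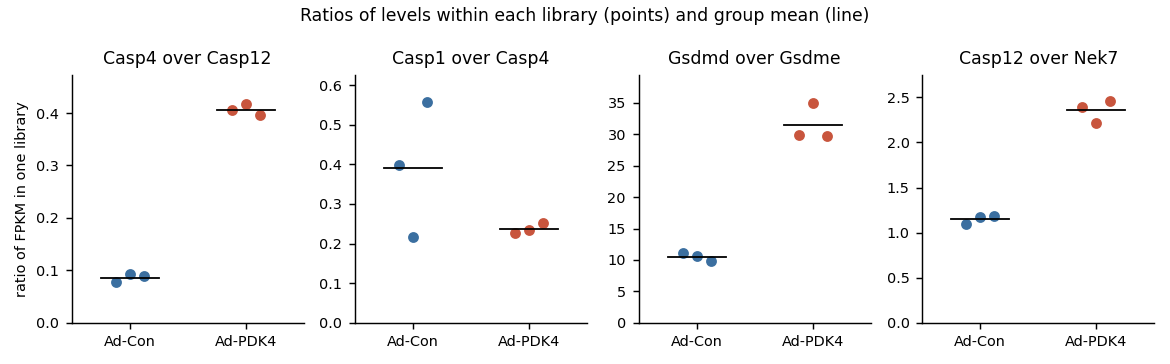
Ratios of levels within 1 library (vertical axes, ratio of FPKM, from 0) for 4 pairs of genes. Points are the 3 Ad-Con (blue) and 3 Ad-PDK4 (red) libraries and the line is the group mean. The groups are apart for Casp4 over Casp12, Gsdmd over Gsdme and Casp12 over Nek7, and overlap for Casp1 over Casp4.

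The 2 gasdermins differed. Gsdmd, the pore-forming substrate of caspase-1 and caspase-11, lies at chromosome 15, 75862327 to 75867408. It had 7.98, 8.77 and 8.26 FPKM in Ad-Con replicates 1 to 3 and 24.5, 27.0 and 26.1 FPKM in Ad-PDK4 replicates 1 to 3. The spread within each group was small beside the gap between them, and 356 to 386 reads in Ad-Con stood against 1059 to 1369 in Ad-PDK4. The log2 fold change was 1.62 with a 95% interval from 1.48 to 1.76 (adjusted p = 9.7e-07, limma), the narrowest interval of the 5 risen genes.

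Gsdme, which encodes another pore-forming gasdermin, was low and about level between groups. It lies at chromosome 6, 50188888 to 50263862, on the minus strand. Levels were 0.721, 0.827 and 0.835 FPKM in Ad-Con replicates 1 to 3, and 0.819, 0.771 and 0.878 FPKM in Ad-PDK4 replicates 1 to 3. The groups overlapped fully, and the log2 fold change was 0.05 with a 95% interval from -0.38 to 0.48 (adjusted p = 0.866, limma). This excludes a 2-fold change of the counted level in either direction. Its counted length of 12742 bases is long for its 172 to 247 reads, and 10052 bases of the gene overlap Mpp6 on the opposite strand, which had 916 to 1670 reads. Whether counting used strand is not given in the sources used here, so the level of Gsdme and its change between groups are uncertain.

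Gsdmd thus exceeded Gsdme by a wider margin in the libraries labelled Ad-PDK4. The ratio of their levels was 11.1, 10.6 and 9.89 in Ad-Con replicates 1 to 3. In Ad-PDK4 replicates 1 to 3 it was 29.9, 35.0 and 29.7. The means were 10.5 ± 0.593 and 31.5 ± 2.99 (SD, n = 3) with no overlap (exact permutation p = 0.1). The size of the ratio in either group, and its change, rest on the uncertain level of Gsdme. Its counted length was 12742 bases, beside a longest transcript of 4628 bases.

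Among the inflammasome parts, the canonical sensor and its adaptor were at or near the limit of detection. Nlrp3, the sensor (chromosome 11, 59541568 to 59566956), had 0, 3 and 0 reads in Ad-Con replicates 1 to 3 and 1, 4 and 0 reads in Ad-PDK4 replicates 1 to 3. In 3 of the 6 libraries no read was counted, which allows a level of up to 0.0363 FPKM in Ad-Con replicate 1, 0.0408 in Ad-Con replicate 3 and 0.0335 in Ad-PDK4 replicate 3. Summed over libraries, 3 reads stood against 5, a depth-scaled ratio of 1.62 with an exact 95% counting interval from 0.314 to 10.4. No difference in Nlrp3 mRNA was thus detected, and changes within that interval, in either direction, cannot be told from none at this depth.

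Pycard encodes ASC, the adaptor that links sensors to caspase-1, and lies at chromosome 7, 127989708 to 127993867. It had 4, 0 and 8 reads in Ad-Con replicates 1 to 3 and 10, 7 and 9 reads in Ad-PDK4 replicates 1 to 3. The corresponding levels were 0.0517, 0 and 0.116 FPKM, and 0.145, 0.105 and 0.107 FPKM. The groups overlapped, since Ad-Con replicate 3 was above 2 of the Ad-PDK4 libraries. The depth-scaled ratio of 26 to 12 reads was 2.10 with a counting interval from 1.02 to 4.57, which leaves out the spread between libraries. When genes under the filter were fitted too, the log2 fold change was 0.56 for Pycard (adjusted p = 0.386, limma) and 0.11 for Nlrp3 (adjusted p = 0.790). Of 100-base stretches of the Pycard transcript, 10.4% also lie in Gm45205, which had at most 1 read.

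Nek7, by contrast, was abundant and about level. It encodes the kinase that bridges NLRP3 subunits, and lies at chromosome 1, 138482875 to 138620141. Its levels were 16.4, 16.3 and 17.0 FPKM in Ad-Con replicates 1 to 3 and 15.5, 14.4 and 16.8 FPKM in Ad-PDK4 replicates 1 to 3. The groups overlapped, on 1859 to 2729 reads per library. The log2 fold change was -0.09 with a 95% interval from -0.25 to 0.06 (adjusted p = 0.297, limma), so a change of the size seen in the caspases lies outside it. Within libraries, Casp12 was 1.15 ± 0.0478 times Nek7 in Ad-Con and 2.36 ± 0.127 times Nek7 in Ad-PDK4 (SD, n = 3, exact permutation p = 0.1).

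Naip2, whose product detects a part of the bacterial type III secretion system and engages NLRC4, rose. It lies on the minus strand at chromosome 13, 100144063 to 100202092. Levels were 0.578, 0.635 and 0.637 FPKM in Ad-Con replicates 1 to 3, and 2.34, 1.80 and 2.63 FPKM in Ad-PDK4 replicates 1 to 3. Each Ad-PDK4 library lay well above the 3 closely spaced Ad-Con libraries, on 153 to 282 reads against 54 to 57. The means of 0.617 ± 0.0336 and 2.26 ± 0.421 FPKM (SD, n = 3) gave a log2 fold change of 1.70 (95% interval 1.30 to 2.11, adjusted p = 1.8e-04, limma). With a pseudocount of 1 the change was 1.003 and still past the threshold. Of 100-base stretches of its transcript, 4.55% also occur in other Naip genes, so part of its reads could belong to these.

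The other genes of the Naip cluster contributed few reads. Naip5 had 0, 0 and 1 reads in Ad-Con and 14, 4 and 9 in Ad-PDK4, Naip6 had 3 to 5 and 10 to 16, and Naip1 had at most 2 in any library. Nlrc4, the partner through which NAIP proteins act, had 0 to 6 reads in Ad-Con and 2 to 11 in Ad-PDK4, and the groups overlapped. Of the other 5 genes within 250 kb of Naip2 that passed the filter, none reached its change. Bdp1, encoding a subunit of RNA polymerase III factor TFIIIB, rose (log2 fold change 0.87, adjusted p = 3.9e-04, limma) and so did Smn1, of the survival motor neuron complex (0.32, adjusted p = 0.0070). Mccc2, of leucine breakdown, fell by 0.36 on the log2 scale (adjusted p = 0.0057), and Serf1 (-0.28, adjusted p = 0.256) and Rpl31-ps13 (-0.09, adjusted p = 0.894) did not pass the test.

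Il18, the cytokine substrate, had the opposite sign to the caspases without passing the test. It lies at chromosome 9, 50554827 to 50581840, far from the caspase cluster. Ad-Con replicates 1 to 3 had 3.72, 2.26 and 5.24 FPKM, and Ad-PDK4 replicates 1 to 3 had 1.12, 2.55 and 1.89 FPKM. The groups overlapped, because Ad-PDK4 replicate 2 lay above Ad-Con replicate 2. These values rested on 78, 41 and 98 reads in Ad-Con and 21, 46 and 43 in Ad-PDK4. The means were 3.74 ± 1.49 and 1.85 ± 0.716 FPKM (SD, n = 3), and the log2 fold change was -0.97 with a 95% interval from -1.94 to 0.00034 (unadjusted p = 0.0501, adjusted p = 0.0986, limma). The call on Il18 depended on 1 library and on the test. Without Ad-Con replicate 2 the change was -1.28 (adjusted p = 0.0358), and limma-voom on recovered reads gave -1.01 (adjusted p = 0.0174). Other libraries moved it the other way, to -0.69 without Ad-Con replicate 3 (adjusted p = 0.223) and -0.67 without Ad-PDK4 replicate 1 (adjusted p = 0.216). It shares 355 bases with Bco2 on the opposite strand, which had 9 to 45 reads.

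**Figure D3:**
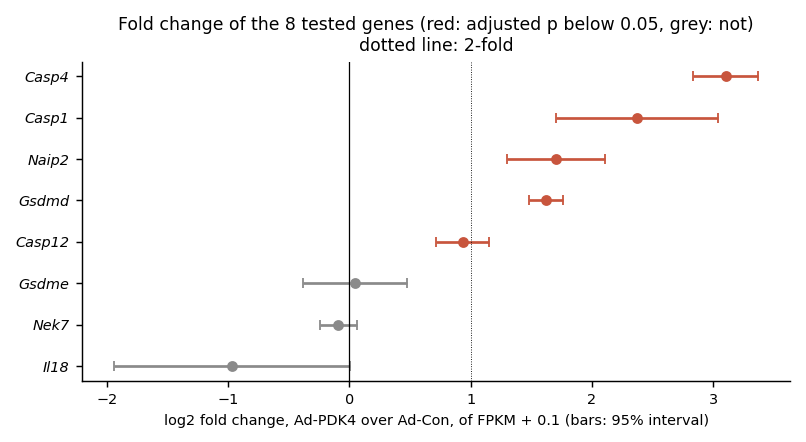
Log2 fold change of log2(FPKM + 0.1), Ad-PDK4 over Ad-Con (horizontal axis), for the 8 genes that passed the filter. Points are limma estimates, bars are 95% intervals, red marks an adjusted p below 0.05 and the dotted line is 2-fold. Casp4 is highest at 3.10, the intervals of Casp4, Casp1, Naip2 and Gsdmd lie above 2-fold, and that of Il18 is the widest.

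The order of the levels changed between groups. In Ad-Con it ran, from the highest mean FPKM, Casp12, Nek7, Gsdmd, Il18, Casp4, Gsdme, Casp1, Naip2, Pycard and Nlrp3. Neighbours whose ranges overlapped there were Gsdme and Casp1, Casp1 and Naip2, and Pycard and Nlrp3. In the libraries labelled Ad-PDK4 the order was Casp12, Gsdmd, Nek7, Casp4, Casp1, Naip2, Il18, Gsdme, Pycard and Nlrp3. Here the ranges of Nek7 and Casp4 overlapped, as did those of Naip2 and Il18. In FPKM, Casp4 thus moved from well below Nek7 to the same range, while the sensor Nlrp3 stayed last in both groups. The place of Gsdme in both orders is as uncertain as its level. An order between genes also depends on the counted lengths. Counted length and longest transcript were 3710 and 1901 bases for Casp4, and 7376 and 5258 bases for Nek7. With other lengths the place of Casp4 beside Nek7 in the libraries labelled Ad-PDK4 could differ.

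Other genes of the pathway were described from 6 lists, 66 genes in all, of which 41 passed the filter. At an adjusted p below 0.05, 18 were higher in the libraries labelled Ad-PDK4 and 7 lower, beside the 21.8% and 20.8% of all genes tested, and the median log2 fold change was 0.11. Of the 41 tested, 10 were higher by at least 2-fold and 0 lower, beside 3.95% and 2.68% of all genes tested. Of the 18 higher genes, 4 (Nlrc5, Il18bp, Il33 and Gbp5, also among the 10) had an Ad-Con mean under 0.5 FPKM and passed the filter through their Ad-PDK4 level alone, so they had to differ to be tested. None of the 7 lower genes passed through 1 group alone. In 14 genes no library had more than 3 reads, and 10 of these had 0 reads in every library.

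Among the other inflammasome sensors and NOD-like receptors, 5 of 17 passed the filter. Of these, 3 were higher and none lower, beside 21.8% and 20.8% of all genes tested. Of the 3 higher genes 1, Nlrc5, passed through Ad-PDK4 alone. Zbp1, a sensor of left-handed nucleic acid, had the steepest rise, from 0.543 to 0.797 FPKM in Ad-Con to 56.7 to 66.0 FPKM in Ad-PDK4 (log2 fold change 6.25, adjusted p = 9.6e-08, limma). Nlrc5, a transactivator of MHC class I genes, went from 0.220 to 0.295 FPKM up to 4.23 to 4.72 FPKM (3.67). Nod1, a receptor for bacterial peptidoglycan, rose by 1.23 on the log2 scale. Aim2, a sensor of cytosolic DNA named here after its values were seen, was under the filter with 0, 3 and 0 reads in Ad-Con and 18, 24 and 16 in Ad-PDK4. Its groups were apart, and the Ad-Con libraries were all at or below the 3 reads that a count of 0 allows.

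In the IL-1 family list, 5 of 10 genes passed the filter. Of these, 3 were higher and none lower, beside 21.8% and 20.8% of all genes tested. Of the 3 higher genes 2, Il18bp and Il33, passed through Ad-PDK4 alone. Il18bp, encoding the secreted protein that neutralises IL-18, rose from 0.308 to 0.565 FPKM in Ad-Con to 6.40 to 6.84 FPKM in Ad-PDK4 (log2 fold change 3.68, adjusted p = 3.4e-06, limma). Its level in the libraries labelled Ad-PDK4 was above that of Il18 in each of them, and in the Ad-Con libraries it was below. Il33, encoding an alarmin of the family, rose from 2 to 14 reads to 48 to 93 reads (2.59, adjusted p = 0.0021). Il1b, the other main substrate of caspase-1, had 0 reads in every library and Il1a at most 3, both named after their values were seen.

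All 13 activators and restraints of inflammasomes passed the filter, Gbp5 through Ad-PDK4 alone. Of the 13, 7 were higher and 3 lower, beside 21.8% and 20.8% of all genes tested. Rises of at least 2-fold were seen for Gbp5 (log2 fold change 4.42) and Gbp2 (3.27), which encode guanylate-binding proteins that act on bacteria and inflammasomes, and for Trim30a (3.46), which encodes a ubiquitin ligase. They were also seen for Tnfaip3 (2.17), encoding the NF-kappaB inhibitor A20, and Ripk2 (1.31), encoding the kinase downstream of NOD receptors. Gbp2 was the most abundant of the 5, at 10.4 to 12.5 FPKM in Ad-Con and 103.8 to 120.8 FPKM in Ad-PDK4. The 3 lower genes were Txnip (-0.58), encoding the thioredoxin-interacting protein, the ATP-gated channel gene P2rx4 (-0.35) and the thioredoxin gene Txn1 (-0.32).

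The remaining lists moved little. Of the 6 genes in the list of apoptotic and initiator caspases and Fadd, none was higher and 2 were lower, namely Casp9 (-0.64) and Casp6 (-0.55). Over all genes tested 21.8% were called higher and 20.8% lower. Casp8 had 15.1 ± 0.460 and 16.1 ± 0.821 FPKM (SD, n = 3) and did not pass the test (0.10, adjusted p = 0.215). In the list of other gasdermins and NINJ1, 5 of 9 genes had 0 reads in every library and only Ninj1, which encodes the protein that ruptures the membrane late in lytic death, passed the filter. It was higher, at 28.0 to 32.1 FPKM in Ad-Con and 45.0 to 49.8 FPKM in Ad-PDK4 (log2 fold change 0.71, adjusted p = 1.7e-04). Of 11 ESCRT-III membrane repair genes, 4 were higher and 2 lower, beside 21.8% and 20.8% of all genes tested. None changed by 2-fold, and Chmp4b had the highest change at 0.44.

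**Figure D4:**
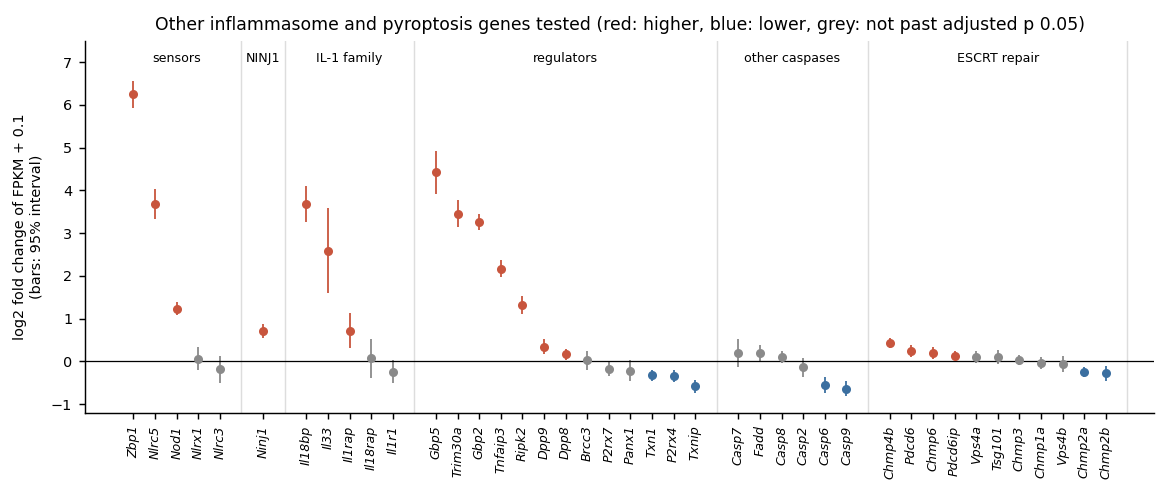
Log2 fold change of log2(FPKM + 0.1), Ad-PDK4 over Ad-Con (vertical axis), of the 41 other pathway genes that passed the filter, grouped by list. Points are limma estimates and bars 95% intervals, with red for higher, blue for lower and grey for an adjusted p that was not below 0.05. Changes of at least 2-fold lie among sensors, the IL-1 family and regulators, and none among the other caspases or repair genes.

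Inflammasome genes are well known from macrophages, so markers of other cell types were set beside these values. Of 16 macrophage markers, 10 had at most 1 read in any library, Ptprc, Adgre1, Tyrobp and the C1q genes among them. The summed level of the 16 was 31.5 to 34.9 FPKM in Ad-Con and 26.2 to 29.8 FPKM in Ad-PDK4. Of 4 tested, Cd14 was higher (0.55) while Cd68 (-1.74) and Mertk (-1.05) were lower, beside 21.8% and 20.8% of all genes tested. Lyz2, at 1.30 to 1.68 FPKM in Ad-Con and 1.74 to 2.24 FPKM in Ad-PDK4, did not pass (0.36, adjusted p = 0.0791). Csf1r, under the filter and named after its values were seen, had 11 to 35 reads in Ad-Con and 56 to 62 in Ad-PDK4. The 6 endothelial markers summed to 0.634 to 0.827 and 0.924 to 1.18 FPKM, and Kdr, the only one tested, did not pass (0.68, adjusted p = 0.0645). The part of these markers in the results was not tested. The 11 contractile markers summed to 172 to 173 FPKM in Ad-Con and 135 to 145 FPKM in Ad-PDK4. Of 5 tested, 1 was higher and 2 lower, beside the same shares of all genes tested, 21.8% and 20.8%. Acta2 fell from between 76.9 and 78.7 FPKM to between 33.5 and 38.0 FPKM (log2 fold change -1.11, adjusted p = 5.3e-06, limma), and Tpm2 was lower too (-0.33). Cald1 was higher (0.36), at 55.6 to 56.8 FPKM in Ad-Con and 69.7 to 75.1 FPKM in Ad-PDK4, and Smtn had 8.13 to 8.95 FPKM over all libraries. Myh11 had at most 10 reads, Myocd at most 5, Des at most 16, Tagln at most 20 and Cnn1 at most 30. These markers were thus nearly absent in both groups while Acta2, Cald1, Tpm2 and Smtn were present. Mylk had 122 to 188 reads in Ad-Con and 24 to 28 in Ad-PDK4. Lmod1 did not pass the test (-0.29, adjusted p = 0.357, limma). Of the 11 markers, 5 had every Ad-PDK4 library below every Ad-Con library (26.5% of all genes tested) and 1 above (27.8%). These shares are over genes that passed the filter, whereas the 11 include genes under it. Mylk, Cnn1 and Des, among the 5, were under the filter and named after their values were seen.

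**Figure D5:**
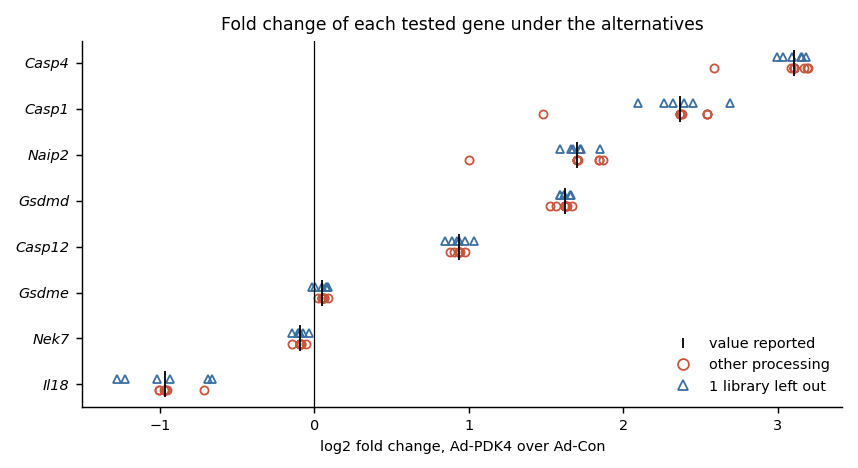
Log2 fold change, Ad-PDK4 over Ad-Con (horizontal axis), of the 8 genes that passed the filter, as reported (black bar), under other processing (red circles) and with 1 library left out (blue triangles). Casp1, Casp4, Casp12, Gsdmd and Naip2 stay above 0 throughout, Nek7 and Il18 stay below, and Gsdme lies around 0, with the lowest value at -0.015.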

How the data were processed

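RNA sequencing libraries of mouse vascular smooth muscle cells (3 Ad-Con, 3 Ad-PDK4) were grouped by their treatment labels, with replicate numbers from their titles. The deposited unit was FPKM, computed by the authors per gene and library. The submitters' processing notes name CASAVA 1.8, fastp, HISAT2 2.0.5, featureCounts 1.5.0-p3, DESeq2 1.20.0 and GRCm39. Coordinates in the table are however those of GRCm38, since 98.3% of the 54409 identifiers found in GENCODE mouse release 21 had the same coordinates there, all 10 genes included. The labels name a SMARTER kit and the study's methods a NEBNext kit. FPKM times gene length, divided by the value of 1 read in that library, gave whole reads, within 0.01, for 100% of non-zero values, and these reads give the depth stated in the text.

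The test, limma 3.58.1 (R 4.3.3), was run on log2(FPKM + 0.1) over all 6 libraries, without covariates, with trended and robust empirical Bayes moderation. Adjustment was by Benjamini-Hochberg over 13423 genes with a mean of at least 0.5 FPKM, and the script was checked on simulated data. Ratios were compared by two-sided exact permutation tests, and counting intervals are exact at 95%. The deposited table was complete for the 10 genes, and replicates differed by more than sampling noise, so each library counted once.

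The genes described, the 6 pathway lists and the lists of macrophage, endothelial and contractile markers were chosen with earlier results of these data known. Named were all 10 genes, each pathway list gene past an adjusted p of 0.05 and 2-fold, tested genes within 250 kb of the caspases or of Naip2, and Pdk4. Other genes named were chosen after their values were seen. A gene first placed in a pathway list is not reported here and enters no count of that list. Sequences came from RefSeq (GRCm38.p6), matched for 9 of the 10 genes. Same-numbered replicates did not deviate together (correlations of deviations -0.046, -0.031 and -0.0013), so they were not treated as pairs. The alternatives, 16 in number, were other pseudocounts, filters, scalings and moderation, limma-voom, a replicate block and leaving out each library. Among them, rescaling by median of ratios gave back the reported values unchanged, so it is no separate check.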

Additional observations from a re-analysis of the deposited data

How the results depend on the processing

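Under the alternatives tried, Casp1 (log2 fold change 1.48 to 2.69), Casp4 (2.58 to 3.20), Casp12 (0.85 to 1.03), Gsdmd (1.52 to 1.67) and Naip2 (1.003 to 1.87) stayed higher and past the threshold wherever they were tested. With a minimum mean of 5 FPKM only 4 of the 10 genes and 25 of the pathway genes were tested, and the counts fell to 3 genes higher, 2 of them by 2-fold, and 11 pathway genes higher. The median of the tested genes was 0.95 with a pseudocount of 1 and 0.74 with no filter, which lets in Nlrp3 and Pycard. limma-voom on recovered reads called 1 gene lower, Il18 (-1.01). Leaving out each library in turn gave 0 to 1 genes lower, the 1 being Il18 without Ad-Con replicate 2 (-1.28), and always 5 genes higher. Over these fits Gsdme ran from -0.015, its sign turned, without Ad-Con replicate 1 to 0.086 without Ad-PDK4 replicate 2. The cause was not tested. With the replicate number as a replicate block, 5 genes were higher, 0 lower, and 16 pathway genes higher and 7 lower, and no call on the 8 tested genes changed. At this depth Nlrp3 and Pycard had few reads per library, and only wide counting intervals could be given for them.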
